A study of Mus musculus with 12 samples.

Results

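The genes described here encode 10 chaperones and folding helpers of the endoplasmic reticulum: Hspa5, Hsp90b1, Calr, Canx, Pdia3, Pdia4, Pdia6, Sdf2l1, Manf and Creld2. They were chosen by name as folding genes of this compartment, with earlier results of these data known. A probe matched by RefSeq accession was found for 9 of them, and all 9 passed the filter on dim probes. The array held 32678 entries counted here as genes. Of these, 17178 had a gene symbol, and the others were counted by accession or probe name. Pdia3, a disulphide isomerase that works with calreticulin and calnexin, had no matched probe and is not analysed here.

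The cells were NIH3T3, an established mouse embryonic fibroblast line grown in medium with calf serum. Cultures of the 3 groups received the solvent DMSO, rapamycin at 50 nM or PP242 at 2 µM for 18 h, with 4 one-colour Agilent arrays each that the design text calls independent experiments. The treatment protocol writes the PP242 dose in mM; the dose in µM is that of the design text and of the sample labels. Rapamycin is an allosteric inhibitor of the growth kinase mTOR that acts mainly on one of its complexes, and PP242 is an inhibitor that competes with ATP in the kinase site and acts on both complexes. Each drug was used at 1 dose and 1 time, so that PP242 and rapamycin are compared here as treatments and not as structures.

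Secreted and membrane proteins enter the endoplasmic reticulum unfolded. Hspa5 (BiP) and Hsp90b1 (GRP94) bind them there, calreticulin and calnexin hold those that carry glycans, and the disulphide isomerases form and rearrange their disulphide bonds. When unfolded proteins accumulate, the unfolded protein response switches these genes on through the sensors IRE1, PERK and ATF6, in part through a promoter sequence called the ER stress response element (ERSE). In fibroblasts, which secrete collagen and other matrix proteins, these chaperones are abundant without added stress.

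The ERSE was searched for as CCAAT, then 9 bases of any kind, then CCACG, on both strands, in the 250 bases before each annotated start. RefSeq windows (build GRCm38.p6) were at hand for 9 of the 10 genes, all but Manf. Of these windows, 6 held at least 1 match (66.7%), against 37 of the 32851 windows of all genes (0.113%). The matches are shown because they are what most of these genes share outside the array data. As the element was already known to act on such genes, its share among them is a description and no test. Each stretch below runs 5′ to 3′ on the strand of the gene. Capitals mark the fixed bases of the element, which read CGTGG and ATTGG where it lies on the opposite strand.
Hspa5, chr2:34772010-34772058, + strand: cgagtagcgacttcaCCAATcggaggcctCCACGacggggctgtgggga
Hsp90b1, far match, chr10:86705623-86705671, - strand: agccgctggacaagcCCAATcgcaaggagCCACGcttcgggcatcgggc
Hsp90b1, near match, chr10:86705518-86705566, - strand: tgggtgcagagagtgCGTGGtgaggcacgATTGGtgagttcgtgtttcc
Calr, chr8:84847060-84847108, - strand: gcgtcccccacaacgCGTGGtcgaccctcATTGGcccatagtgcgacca
Canx, chr11:50325785-50325833, - strand: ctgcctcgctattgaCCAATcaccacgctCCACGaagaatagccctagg
Pdia6, chr12:17266476-17266524, + strand: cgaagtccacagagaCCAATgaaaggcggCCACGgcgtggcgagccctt
Creld2, chr15:88819505-88819553, + strand: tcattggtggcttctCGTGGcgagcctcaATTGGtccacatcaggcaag

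The elements ended between 46 bases (Hspa5) and 193 bases (the far match of Hsp90b1) before the start. Those of Hspa5, Canx and Pdia6 and the far match of Hsp90b1 lay on the strand of the gene, and the other matches on the opposite strand. No match was found in the windows of Pdia3, Pdia4 and Sdf2l1. The shorter parts were common: CCAAT was in all 9 windows (33.8% of all windows), and CCACG in 7 (28.3% of all windows); both counts include the copies inside the ERSE. ERSE-II, searched as ATTGG, 1 base of any kind and CCACG, was in none of the 9 (0.0304% of all windows), and neither was TGACGTGG, the core of the unfolded protein response element (0.563%). A match is a description of these letters and no proof of binding, and a window without one says nothing of the factors that act there.

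**Figure D1:**
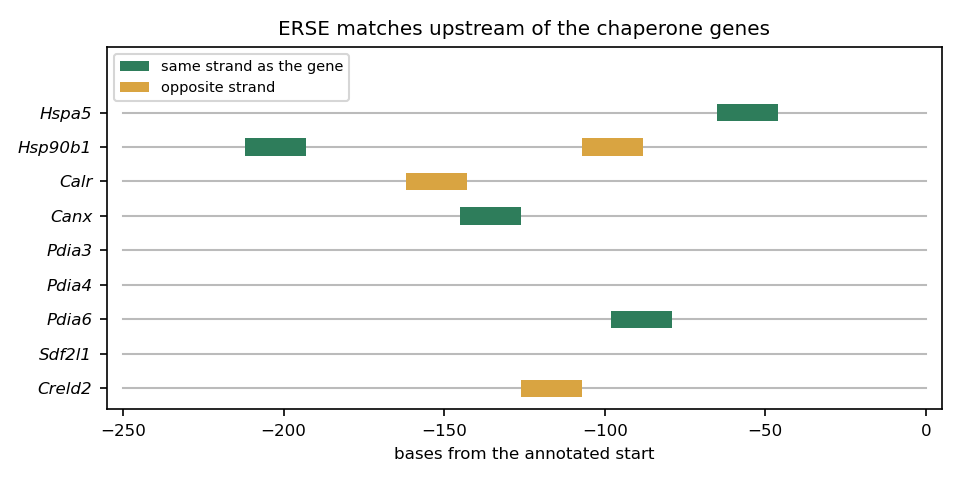
Position of each ERSE match (coloured box) in the 250 bases before the annotated start of 9 chaperone genes; the x axis gives bases from the start and the colour the strand. Matches lie in 6 of the 9 windows, with 2 in that of Hsp90b1 and none in those of Pdia3, Pdia4 and Sdf2l1.

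A level below is the log2 of a probe's processed intensity over the 75th percentile of its array, so that 0 is the level of that percentile and a difference of 1 is a 2-fold difference. Levels of different genes come from different probes and are not compared. On 4 arrays (DMSO 2, rapamycin 3, PP242 1 and PP242 4), between 78.0% and 97.9% of the probes were called well above background, against 55.8% to 60.5% on the other 8. On those 4, the 75th percentile was 7.12 to 51.1 times the 25th, against 261 to 420 times on the others. Each result is therefore given for all 12 arrays and for the 8 arrays with a ratio over 100 (3 DMSO, 3 rapamycin, 2 PP242). The 12 arrays lie on 3 slides, each of which held all 3 groups. Of the 8 arrays, however, slide 2 held only rapamycin 2 and PP242 3, and slide 3 only DMSO 3 and rapamycin 4. On the 8 arrays PP242 and DMSO thus shared only slide 1, and slide and treatment are partly mixed. All 8 fibroblast markers examined were well above background on all 8 arrays. Pecam1, Cdh5 and Kdr of endothelium and Ptprc of blood cells were above it on none of the 8, as were Epcam, Cdh1 and Krt18 of epithelium, while Krt8 was above it on 3 arrays. Of the fat and muscle markers, Adipoq and Plin1 were above it on 1 array each, Des on 5 and Myog on 0. Of the immune markers, Cd14 was well above background on all 8 arrays, with levels of 1.51 to 1.55 with DMSO, 0.99 to 1.03 with rapamycin and 0.50 to 0.58 with PP242; its part in the results was not tested. In such bulk RNA, fewer cells that express a gene and less RNA per cell cannot be told apart.

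Most of the chaperone genes were lower with PP242 than with DMSO in the fit of 8 arrays, and none passed the test in that of all 12. On the 8 arrays, 7 of the 9 were lower (limma, adjusted p under 0.05 over all genes) and 0 were higher, where 13.3% of the 19668 genes tested were lower and 12.8% higher. The median change of the 9 genes was -0.65 on the log2 scale, beside -0.01 for all genes. Sdf2l1 changed the most, Pdia6, Calr, Manf, Pdia4, Creld2 and Hsp90b1 fell by similar amounts, the change of Hspa5 missed the threshold, and Canx was at 0.13. In 8 of the 9 genes every PP242 array lay below every DMSO array, a pattern that 29.3% of all genes showed on these arrays.

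Hspa5 encodes BiP, the Hsp70 chaperone of the compartment, which also holds the stress sensors inactive. Its level was 5.83, 5.47, 5.87 and 6.17 on DMSO arrays 1 to 4, 5.87, 5.81, 3.21 and 5.75 on rapamycin arrays 1 to 4, and 5.35, 5.61, 5.50 and 5.02 on PP242 arrays 1 to 4. Rapamycin 3 was the lowest array, as for all the genes that follow, and the highest PP242 array lay above DMSO 2 but below the other DMSO arrays. Hspa5 differed on the 8 arrays by -0.41 ± 0.13 (SE) between PP242 and DMSO, with a 95% interval of -0.72 to -0.10 and a limma adjusted p of 0.0612. It thus missed the threshold, although the unadjusted p was 0.0174 and the groups did not overlap.

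Hsp90b1 encodes GRP94, the Hsp90 chaperone of the compartment. Its level was 6.34, 6.02, 6.48 and 6.31 with DMSO, and 5.72, 5.83, 5.66 and 5.59 with PP242. On rapamycin arrays 1 to 3 it was 6.24, 6.33 and 4.05; the spot of rapamycin array 4 was marked as an outlier by the scanner software and was left out. All PP242 arrays were lower than all DMSO arrays. The gene fell on the 8 arrays by 0.64 ± 0.11 (SE) on the log2 scale with PP242 (1.55-fold, limma adjusted p = 0.0122). A dimmer probe of Hsp90b1 gave a larger difference, -1.01 ± 0.18 (SE).

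Calreticulin (Calr) and calnexin (Canx) are the lectin chaperones, the first soluble and the other anchored in the membrane. Calr levels were 5.79, 5.54, 5.89 and 5.72 with DMSO, 5.58, 5.69, 3.69 and 5.61 with rapamycin, and 5.05, 5.08, 5.12 and 4.71 with PP242. The PP242 arrays were all below the DMSO arrays. Calr fell by 0.70 ± 0.09 (SE) with PP242 on the 8 arrays (1.62-fold, limma adjusted p = 0.00341), and its dimmer probe gave -0.69 ± 0.16 (SE).

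Canx showed no such fall. Its level was 4.95, 4.70, 5.19 and 4.87 with DMSO, 5.16, 4.80, 2.35 and 4.75 with rapamycin, and 4.85, 5.10, 5.16 and 4.16 with PP242. The groups overlapped throughout. The difference between PP242 and DMSO on the 8 arrays was 0.13 ± 0.16 (SE), with a 95% interval of -0.26 to 0.51 and a limma adjusted p of 0.616. The other Canx probes gave -0.04 ± 0.21 and -0.21 ± 0.23 (SE), so the sign depended on the probe, and on all 12 arrays the brightest probe gave -0.11.

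**Figure D2:**
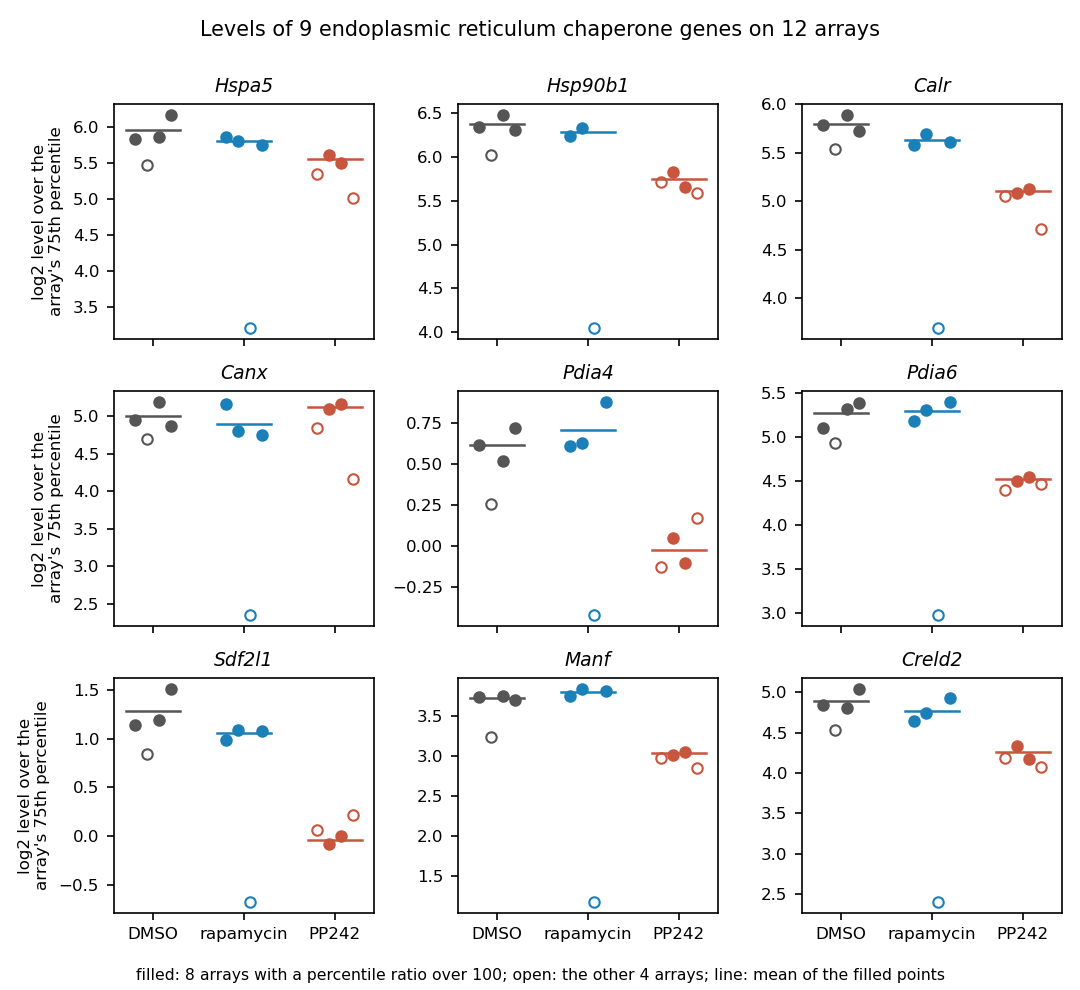
Levels of the 9 measured chaperone genes (y axis, log2 of the processed intensity over the array's 75th percentile) on each of the 12 arrays, by group. Filled points are the 8 arrays with a percentile ratio over 100, open points the other 4, and lines the mean of the filled points; the lowest open point of each rapamycin column is rapamycin 3, and the PP242 points lie below the DMSO points for all genes but Hspa5 and Canx.

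Pdia4 and Pdia6 encode disulphide isomerases; Pdia6 also acts on the sensor IRE1. Pdia4 levels were 0.62, 0.26, 0.52 and 0.72 with DMSO, 0.61, 0.63, -0.42 and 0.88 with rapamycin, and -0.13, 0.05, -0.10 and 0.17 with PP242. All PP242 arrays lay below all DMSO arrays, although PP242 4 and DMSO 2 were close. Pdia4 fell by 0.65 ± 0.13 (SE) on the 8 arrays with PP242 (1.57-fold, limma adjusted p = 0.0124).

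Pdia6 levels were 5.10, 4.94, 5.32 and 5.39 with DMSO, 5.19, 5.31, 2.98 and 5.40 with rapamycin, and 4.40, 4.50, 4.55 and 4.47 with PP242. The 4 PP242 arrays were close together and all below the DMSO arrays. Pdia6 fell by 0.75 ± 0.12 (SE) on the 8 arrays (1.68-fold, limma adjusted p = 0.00665). Its other probes gave -0.77 ± 0.11 and -0.74 ± 0.12 (SE).

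Sdf2l1 encodes a small partner of BiP that works with its J-domain helpers and keeps unfolded proteins soluble. Its level was 1.14, 0.84, 1.19 and 1.51 with DMSO, 0.99, 1.09, -0.68 and 1.08 with rapamycin, and 0.06, -0.08, 0.00 and 0.22 with PP242. The highest PP242 array was well below the lowest DMSO array. Sdf2l1 fell by 1.32 ± 0.13 (SE) on the 8 arrays (2.50-fold, limma adjusted p = 0.00129).

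Manf and Creld2 encode proteins that are kept in the compartment and partly secreted under stress. Manf binds BiP and is known as a survival factor for neurons. Its level was 3.73, 3.23, 3.75 and 3.69 with DMSO, 3.75, 3.83, 1.18 and 3.81 with rapamycin, and 2.97, 3.01, 3.05 and 2.85 with PP242. Apart from DMSO 2 and rapamycin 3, the arrays of each group were close together. Manf fell by 0.69 ± 0.08 (SE) with PP242 on the 8 arrays (1.62-fold, limma adjusted p = 0.00227).

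Creld2, which has isomerase-like activity, had levels of 4.84, 4.53, 4.81 and 5.04 with DMSO. It had levels of 4.64, 4.74, 2.40 and 4.93 with rapamycin, and of 4.18, 4.34, 4.17 and 4.08 with PP242. Every PP242 array was below every DMSO array. Creld2 fell by 0.64 ± 0.13 (SE) on the 8 arrays (1.56-fold, limma adjusted p = 0.0151).

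On all 12 arrays the same comparison had a much larger spread and somewhat different estimates, and none of the 9 genes passed. The changes with PP242 were all negative, from -1.12 (Sdf2l1) to -0.11 (Canx), with a median of -0.61 while the median of all genes was 0.41. The 12 arrays include PP242 1, PP242 4 and DMSO 2, and on the 8 arrays the median of all genes was -0.01. How far those arrays shape the comparisons with all genes was not tested. The limma test called 0.047% of the 25524 genes lower. At an unadjusted p under 0.05, 1 of the 9 chaperones was lower, Sdf2l1 (-1.12 ± 0.39 SE, limma adjusted p = 0.351), where 3.37% of all genes were. In 7 of the 9, all but Hspa5 and Canx, the 4 PP242 arrays lay below the 4 DMSO arrays, which 9.29% of all genes showed. Without rapamycin array 3 alone, which enters the shared estimate of the spread, the other 11 arrays called 7 of the 9 genes lower, and 6.3% of all genes.

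The fall also depended on few PP242 arrays. Of the 8 arrays only 2 are PP242 arrays, and without either of them 3 of the 9 genes were called: Calr, Sdf2l1 and Manf; the lone PP242 array is then assumed to vary like the other groups. In these fits 5.73% (without PP242 2) and 5.01% (without PP242 3) of all genes were lower. The same 3 were called when slide was a block in the fit, at limma adjusted p-values of 0.0446, 0.0298 and 0.0414, where 3.74% of all genes were lower; these 3 passed in every other setting tried on the 8 arrays too. Within slide 1, which holds DMSO 1, DMSO 4, rapamycin 1 and PP242 2, 8 of the 9 genes were lower with PP242 (median -0.62), all but Canx. Within slides 2 and 3, which compare DMSO 2 and 3 with PP242 3, 4 and 1 and so include the 4 arrays left out of the other fit except rapamycin 3, all 9 were lower (medians -0.40 and -0.76). Canx, not lower within slide 1, was at -0.04 and -0.34 there. The part of the left-out arrays in these values was not tested.

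**Figure D3:**
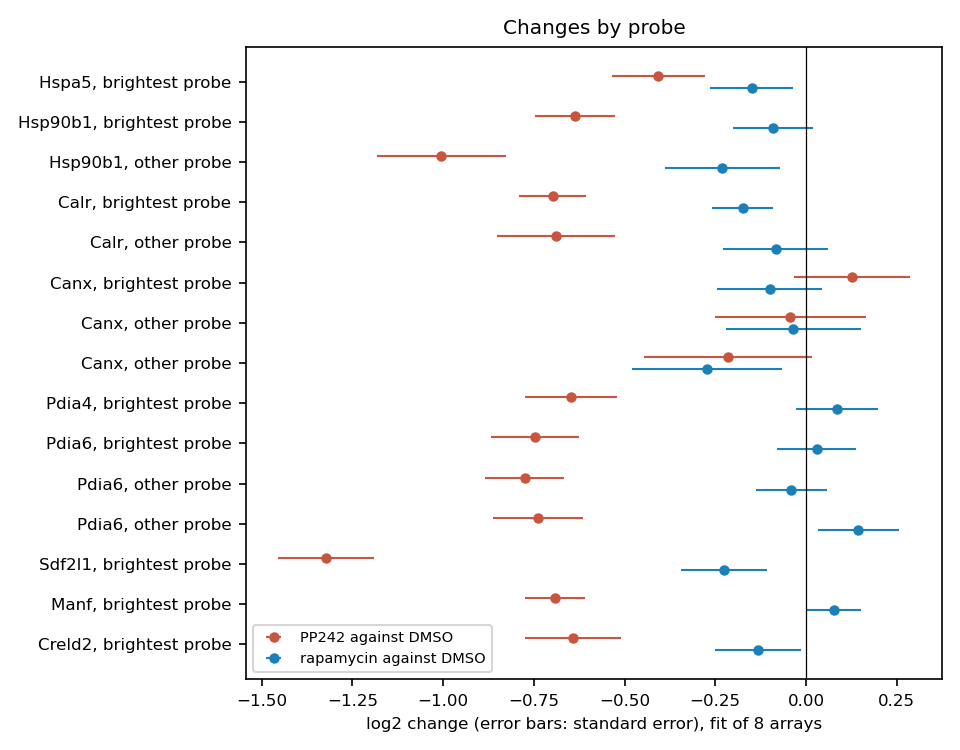
Log2 change on the 8 arrays for each of the 15 probes of the 9 genes (points, with standard errors), for PP242 and for rapamycin against DMSO. With PP242, 14 of the 15 probes are below 0, the brightest probe of Canx being the exception; with rapamycin, the values lie between -0.27 and 0.14.

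Rapamycin did not change any of the chaperone genes past the threshold. On the 8 arrays, 0 of 9 were called and 0 had an unadjusted p under 0.05; limma called 0.0203% of all genes lower in this comparison. Changes ran from -0.23 ± 0.12 (SE) for Sdf2l1 to 0.09 ± 0.11 (SE) for Pdia4, 6 of them negative, with a median of -0.10 beside -0.01 for all genes. The 95% intervals of all 9 genes included 0, and the lowest bound was -0.51, for Sdf2l1. Thus, falls as large as the estimates for PP242 lay outside the intervals of the 7 genes that PP242 lowered. Calr and Sdf2l1 were lower on all 3 rapamycin arrays than on all DMSO arrays, which 10.2% of all genes were, and Manf was higher on all 3, which 8.48% were.

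The signs for Pdia4, Pdia6 and Manf with rapamycin were not stable. They were positive here (0.09, 0.03 and 0.08) and negative after median centring of the arrays (-0.016, -0.072 and -0.024). On all 12 arrays all 9 differences were negative, from -0.75 ± 0.51 (SE, Hsp90b1) to -0.11 ± 0.30 (SE, Pdia4), 0 of 9 were called and 0 had an unadjusted p under 0.05. In that fit 0% of all genes were called lower. The level on rapamycin array 3 was the lowest of all 12 arrays for each of the 9 genes. Without that array the other 11 gave 6 negative differences and a median of -0.025. Within slide 1, 7 of the 9 genes were lower with rapamycin (median -0.08), and within slide 2, where DMSO 2 is the control, 0 were. Within slide 3, all 9 were lower against DMSO 3 when both rapamycin 3 and 4 were used, or rapamycin 3 alone for Hsp90b1 (median -1.24), and 4 of the 8 measured genes when rapamycin 4 was used alone (median -0.02).

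The direct comparison of PP242 with rapamycin also had most of the genes lower with PP242. It uses the same PP242 arrays as the comparison with DMSO. On the 8 arrays, 6 of 9 genes were lower with PP242 and 0 were higher, where 7.31% of all genes were lower and 6.66% higher. Sdf2l1 differed by -1.10 (limma adjusted p = 0.00456), Pdia6 by -0.78 (0.0106), Manf by -0.77 (0.00315), Pdia4 by -0.73 (0.0143), Hsp90b1 by -0.55 (0.0418) and Calr by -0.52 (0.0160). Creld2, at -0.51, just missed the threshold (limma adjusted p = 0.0516). Hspa5 differed by -0.26, with a 95% interval of -0.57 to 0.05 (limma adjusted p = 0.247), and Canx by 0.23 (limma adjusted p = 0.419).

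In 8 of the 9 genes, all but Canx, the PP242 arrays lay below the rapamycin arrays, where 25.6% of all genes did. On all 12 arrays 0 of 9 were called, and 0% of all genes were called lower; none of the 9 had an unadjusted p under 0.05, and 5 of the differences were negative. Without rapamycin 3, 5 of the 9 were called lower, and 2.63% of all genes. Within slide 1, all 9 genes were lower with PP242 than with rapamycin (median -0.50). On slide 2, with rapamycin 2 and PP242 3, 8 were lower (median -0.68), all but Canx. On slide 3, where PP242 1 stands against rapamycin 3 and 4 (for Hsp90b1, rapamycin 3 alone), the direction was the opposite: 2 of the 9 were lower (Pdia4 and Sdf2l1) and the median was 0.47. Against rapamycin 4 alone, PP242 1 was lower for Hspa5, Calr, Pdia4, Pdia6, Sdf2l1, Manf and Creld2. It was higher for Canx (4.85 against 4.75), and Hsp90b1 had no value on rapamycin 4. With slide as a block, 1 gene passed, Manf (limma adjusted p = 0.0486), where 1.8% of all genes were lower, and Sdf2l1 just missed the threshold (0.0563).

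**Figure D4:**
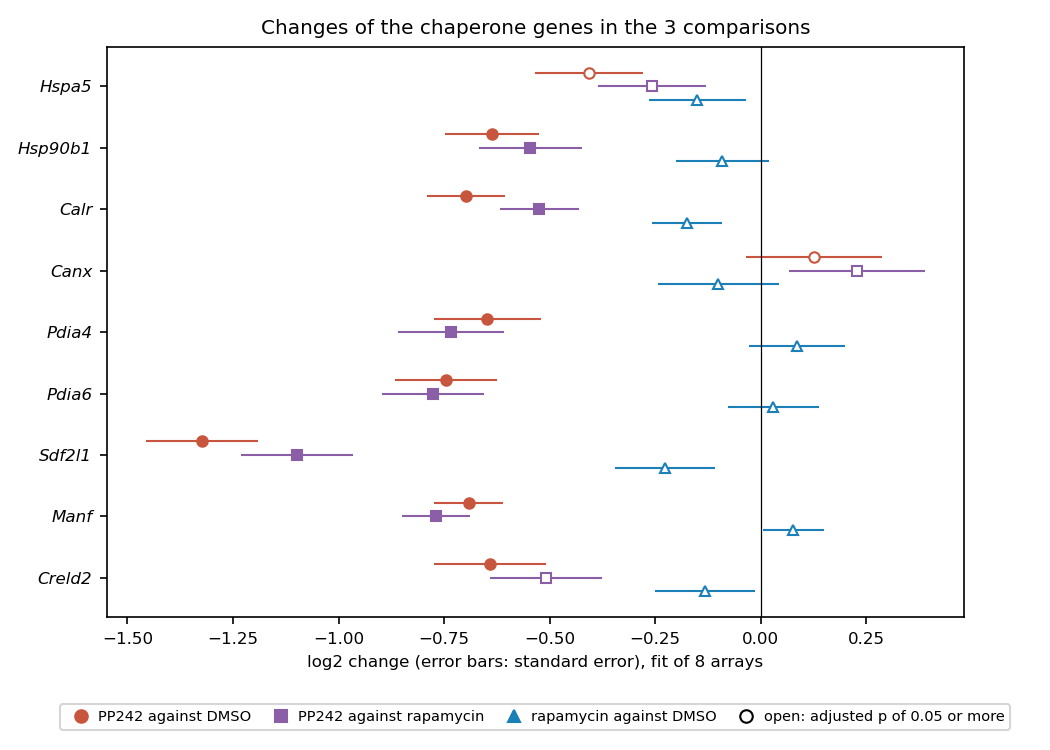
Log2 change (x axis, with standard errors) of the 9 chaperone genes in the 3 comparisons on the 8 arrays; filled symbols have a limma adjusted p under 0.05. For all genes but Hspa5 and Canx the changes with PP242 lie at -0.51 or below and the changes with rapamycin between -0.23 and 0.09.

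The 9 genes varied together across the 8 arrays, Canx excepted. The Pearson correlation of each gene with the mean of the others was between 0.82 (Hspa5) and 0.98 (Sdf2l1), and it was -0.52 for Canx; the arrays fall into groups, which these values reflect, and the 8 points share their scaling. The mean of the 9 centred levels was 0.12 to 0.24 on the DMSO arrays, 0.09 to 0.14 on the rapamycin arrays, and -0.42 and -0.46 on the PP242 arrays. Of 10724 other genes with a symbol that were above background on all 12 arrays, those most like that mean were Wdhd1 (Pearson correlation 0.996), Rad54l (0.995), Pcna (0.995), Asf1b (0.995) and Chek1 (0.994). The correlation takes no account of size. With PP242 against DMSO these genes changed by -1.30 (Pcna) to -2.44 (Asf1b), beside a median of -0.65 for the 9 chaperones.

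Chaperones with and without an ERSE match were among those lower with PP242. Only Sdf2l1 and Pdia4 were measured and had a window without a match, too few to compare by match. Of the 6 with a match, Hsp90b1, Calr, Pdia6 and Creld2 were lower, Hspa5 missed the threshold and Canx was at 0.13. Of those without a match, Sdf2l1 fell the most and Pdia4 was lower too. Outside these genes, 12 tested genes had an ERSE: 1 was lower (Hnrnpa3, an RNA-binding protein, -0.49) and 1 higher (Acacb, the acetyl-CoA carboxylase of mitochondria, 2.64), with a median of -0.31. The 10016 tested genes with a window and no match had a median of -0.01, and 15.2% of them were lower. Dnajc3, a J-domain helper of BiP with an ERSE, was at -0.34 (limma adjusted p = 0.127) and Syvn1, the ubiquitin ligase of ER-associated degradation, at 0.19 (0.201).

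Other genes of the compartment are given next, from lists of their roles, for PP242 against DMSO on the 8 arrays unless stated. Of the 9 sensors of the unfolded protein response and their transcription factors, 1 was lower and 2 were higher, with a median of 0.20 (of all genes, 13.3% were lower and 12.8% higher). Atf6b, a relative of ATF6, was lower (-0.54 ± 0.13 SE, limma adjusted p = 0.0267). Mbtps2, a protease that releases ATF6 in the Golgi, was higher (0.81 ± 0.16 SE, 0.0126), as was Creb3l1, a factor released by the same proteases (0.71 ± 0.16 SE, 0.0229). Mbtps1, the partner protease, was at 0.06 (limma adjusted p = 0.801).

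Among 35 other folding factors, 12 were lower and 3 were higher, with a median of -0.21. The lower ones included Fkbp2, a prolyl isomerase (-0.62, limma adjusted p = 0.00805), Txndc12, a thioredoxin-like protein (-0.68, 0.0105), and Hyou1, the exchange factor of BiP (-0.59, 0.0123). The highest rise was that of Cdnf, the close relative of Manf, at 2.13 ± 0.19 (SE, limma adjusted p = 0.000943), while Manf itself fell by 0.69. Sdf4, a calcium-binding protein (0.47, limma adjusted p = 0.0154), and Sdf2, the relative of Sdf2l1 (0.38, 0.0241), were higher as well, while Sdf2l1 fell by 1.32. Thus, in both of these pairs the relatives went opposite ways with PP242, each past the threshold on the 8 arrays. On all 12 arrays Cdnf was at 2.11 (limma adjusted p = 0.216) and Sdf2 at 0.17 (0.882). These pairs were not planned, and other relatives were not compared. Rcn3, another calcium-binding protein, was at 0.09 (limma adjusted p = 0.623).

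The machinery that brings proteins in and adds glycans had more genes lower than higher. In the translocon and signal peptidase list, 8 of 23 were lower and 1 was higher (median -0.19). Sec11c, a signal peptidase subunit (-0.97, limma adjusted p = 0.000902), Ssr1 of the translocon-associated complex (-0.74, 0.00500) and Srprb of the signal recognition particle receptor (-0.73, 0.00801) were lower. Srp72 of the signal recognition particle was higher (0.40, 0.0196), and Sec61g of the channel was at -0.11 (0.638). For the oligosaccharyl transferase and glycan trimming, 7 of 14 were lower and 0 higher (median -0.44). Rpn1 (-0.74, limma adjusted p = 0.00190) and Ostc (-0.94, 0.0121) of the transferase and the mannosyltransferase Alg3 (-0.65, 0.00576) were lower, and Krtcap2, also of the transferase, was at -0.24 (0.228).

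Genes of export and retrieval were lower in 6 of 14 cases and higher in 1 (median -0.24). Sec23b (-0.77, limma adjusted p = 0.00169) and Sec13 (-0.62, 0.00634) of the export coat and the cargo receptor Surf4 (-0.79, 0.00246) were lower. Kdelr1, a receptor that returns escaped chaperones from the Golgi, was higher (0.36, limma adjusted p = 0.0465), and Mcfd2, a cargo receptor subunit, was at -0.04 (0.913).

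Of 20 genes of ER-associated degradation, the disposal route, 4 were lower and 3 higher (median 0.01), where 13.3% of all genes were lower and 12.8% higher. Vcp, the ATPase that extracts proteins (-0.45, limma adjusted p = 0.0181), Ube2j2, a ubiquitin-conjugating enzyme (-0.42, 0.0182), and Selenos (-0.42, 0.0256) were lower. The lectins Os9 (0.99, limma adjusted p = 0.00622) and Erlec1 (0.70, 0.0300) and the mannosidase-like Edem2 (0.53, 0.0256) were higher, and Derl2 of the exit channel was at 0.01 (0.986).

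The PERK arm and apoptosis targets went both ways, with 2 of 11 lower, 4 higher and a median of 1.13. The pseudokinase gene Trib3, a target of ATF4, fell by 2.63 ± 0.31 (SE, limma adjusted p = 0.00237), and Atf4 itself by 0.51 ± 0.11 (SE, 0.0212). Atf3, a stress-induced factor (2.34, limma adjusted p = 0.00147), and the death genes Bbc3 (1.31, 0.000939) and Bcl2l11 (1.15, 0.00468) were higher, and Nupr1 was at 0.56 (0.569). Trib3 was the sole gene of these lists called on all 12 arrays, at -2.57 (limma adjusted p = 0.0224).

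Chaperones of the cytosol and mitochondria, listed to set the compartment apart, were lower in 5 of 22 cases and higher in 1 (median -0.25). Ahsa1 (-0.70, limma adjusted p = 0.00341) and Stip1 (-0.70, 0.00463), helpers of cytosolic Hsp90, and the mitochondrial Hspd1 (-0.66, 0.00916) were lower. Trap1, the mitochondrial Hsp90, was higher (0.47, limma adjusted p = 0.0241), and Hsp90ab1 was at 0.09 (0.676). With rapamycin, on the 8 arrays, 0 genes of any of these lists were called, with medians from -0.27 (PERK arm and apoptosis targets) to 0.14 (sensors). In PP242 against rapamycin, where 7.31% of all genes were lower and 6.66% higher, the oligosaccharyl transferase list and the export and retrieval list each had 5 of 14 genes lower and 0 higher. The translocon list had 5 of 23 lower and 1 higher, and the other folding factors 5 of 35 lower and 2 higher. The PERK arm had 1 of 11 lower and 4 higher. No gene was lower among the 9 sensors and the 20 of ER-associated degradation, each with 1 higher, or among the 22 cytosolic and mitochondrial chaperones, with 0 higher. Whether these lists differ from each other or from the 9 chaperones was not tested.

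**Figure D5:**
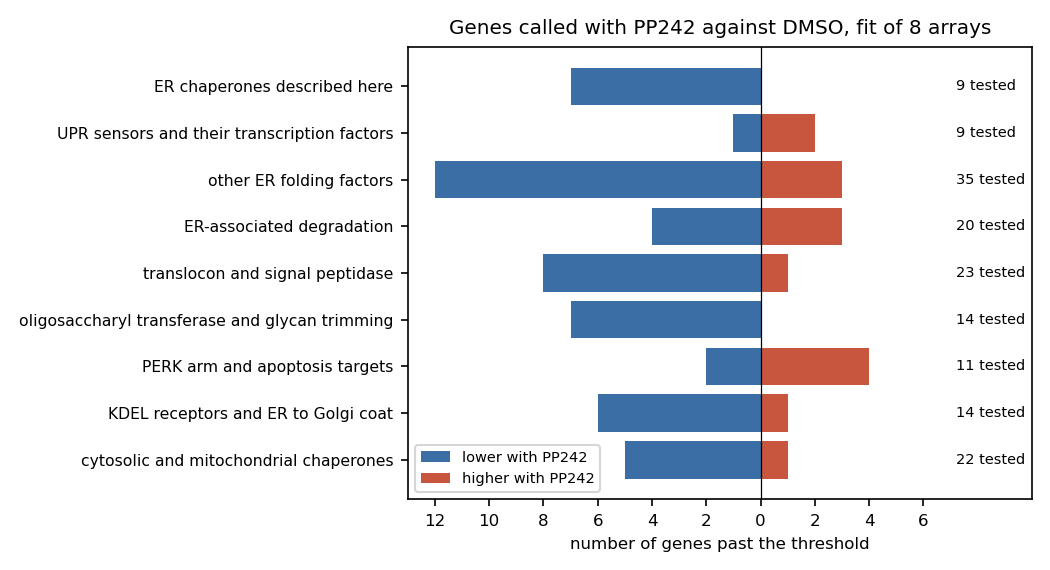
Number of genes past the threshold (limma adjusted p under 0.05) with PP242 against DMSO on the 8 arrays, in each list; bars to the left count genes that were lower, bars to the right genes that were higher, and the number tested is written beside each. The chaperones described here have 7 lower and 0 higher of 9, and the PERK arm has 2 lower and 4 higher of 11.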

How the data were processed

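RNA of 12 cultures (4 each with DMSO, rapamycin and PP242) was hybridised to one-colour arrays. Each deposited scanner file lists 45018 spots with intensity values on a linear scale. The processed signal, per the file headers, was background-subtracted within each array by Agilent Feature Extraction 10.5.1.1 (the submitters' processing notes name 10.1). The log2 value table deposited by the authors for the whole series has column medians of 8.54 to 8.56, and its rank order is that of the median spot intensity; its centring between arrays is not stated, and it served as an alternative. Per the file headers, spots carry flags for outliers, saturation and signal above background.

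Control spots and outlier spots were left out (1.34% of probe values) and no spot was saturated. Spots of a probe were averaged, log2 taken and each array's 75th percentile subtracted. Of 26382 probes with a RefSeq accession, 24844 were matched to a symbol. Probes without a symbol were counted as genes under their accession or probe name. Thus 12533 of the 19668 genes tested on the 8 arrays had a symbol, and 15094 of the 25524 on all 12. Probes were kept where 4 of 12 (or 2 of 8) arrays or more had them well above background, with at most 2 missing values, and the brightest probe stood for its gene. Groups were compared with limma 3.58.1 in R 4.3.3 (lmFit and eBayes, all 3 groups in one fit, two-sided, Benjamini-Hochberg over all genes, threshold 0.05) on 12 arrays and on the 8 whose 75th percentile was over 100 times the 25th. Python 3.11.15, pandas 2.3.3 and matplotlib 3.10.9 read and drew the data. For arrays, their number limits the precision.

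The members, the lists and the choice of 8 arrays were made with earlier results of these data known. In each list the text names up to 3 genes lower and 3 higher with PP242 on the 8 arrays, by adjusted p, and the brightest one that did not pass. The 5 genes most like the members were taken by correlation. Genes with an ERSE outside the lists were named after their values were seen. Whether replicate numbers pair the samples was not settled, and the main fits did not use them. Of the same-numbered pairs, 3 of 4 on the 8 arrays, and 4 of 12 on all, correlated over 0.1, and all the others were negative. The values ran from -0.25 to 0.62 on the 8 arrays and from -0.90 to 0.79 on all 12. Pairs with different numbers were not examined. Alternatives were other normalisations, background correction by normexp with an offset of 50, filters, probe rules, blocks, weights, a ratio over 50, and leaving out each array.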

Additional observations from a re-analysis of the deposited data

Results flagged for a closer look

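Of 26 sets of 4 arrays (a gene in a group), 8 held an array far from the other 3, by Dixon's test at its 95% limit; chance flags about 1 in 20 such sets. In 7 of them the array was rapamycin 3, with levels of 3.69 for Calr (nearest other array 5.58), 2.35 for Canx (4.75), 2.40 for Creld2 (4.64), 3.21 for Hspa5 (5.75), 1.18 for Manf (3.75), 2.98 for Pdia6 (5.19) and -0.68 for Sdf2l1 (0.99). In the eighth it was DMSO 2, at 3.23 for Manf, with the nearest other DMSO array at 3.69. Hsp90b1 with rapamycin had 3 arrays and was not examined in this way. Both arrays are among the 4 left out of the fits on 8 arrays. On rapamycin 3, 97.9% of probes were called well above background.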

How the results depend on the processing

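On the 8 arrays, 7 chaperones were called with PP242 against DMSO; the count was 3 with slide as a block, 3 to 7 when each array was left out in turn, and 7 or 8 in the other settings except the block of replicate numbers. On all 12 arrays the count of 0 became 3 when only the DMSO and PP242 groups were fitted, 8 with array quality weights, 7 on the 8 arrays and 3 on the 9 arrays with a ratio over 50, and 0 to 7 when each array was left out. For PP242 against rapamycin, the 6 called on the 8 arrays became 1 with slide as a block and 1 to 7 when each array was left out (1 without PP242 2, 2 without PP242 3). The 0 called on 12 arrays became 8 with weights, 6 on the 8 arrays, 4 on the 9 arrays and 0 to 5 when each array was left out. Of all genes, 0% were called lower on the 12 arrays, 2.63% without rapamycin 3 and 7.31% on the 8 arrays. For rapamycin against DMSO the count was 0 in every setting tried.

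Whether the replicate numbers pair the samples was not settled. With the replicate number as a block, the 8 arrays gave 6 genes for PP242 against DMSO, 0 for rapamycin against DMSO and 2 for PP242 against rapamycin, and the 12 arrays 0 in all 3 comparisons.

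Some single values changed sign. With PP242 on 12 arrays, Canx was at 0.15 after quantile normalisation, 0.11 in the deposited log2 table, 0.054 with weights, 0.13 on the 8 arrays, and 0.20 on the 9 arrays, and from -0.22 to 0.11 when each array was left out (0.11 without PP242 4). On the 8 arrays the mean of its probes gave -0.044. With rapamycin on the 8 arrays, median centring gave -0.016 for Pdia4, -0.072 for Pdia6 and -0.024 for Manf, and normexp gave -0.0050 for Manf. Leaving out each array gave -0.0030 (without rapamycin 4) to 0.14 for Pdia4, and -0.055 (without DMSO 1) to 0.088 for Pdia6, with -0.019 without rapamycin 4. Of 234 values of single genes on 12 arrays, 17 changed sign for rapamycin against DMSO and 29 for PP242 against rapamycin. Of these 29, 4 were called in the changed direction, lower with PP242: with weights, Hspa5 (-0.27, adjusted p = 0.0476), Hsp90b1 (-0.51, 0.00225) and Creld2 (-0.41, 0.00463), and on the 8 arrays Hsp90b1 (-0.55, 0.0418). The cause was not tested. Hspa5, not called with PP242 on the 8 arrays, passed with a filter on every array, an intensity trend or weights (adjusted p = 0.0425, 0.0345 and 0.0136). The number of genes called with PP242 on the 8 arrays, 5134, ranged from 1414 with slide as a block to 8970 with weights.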
